A study of Mus musculus with 21 samples.

Results

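The comparison set wells named DC2, the latest of the condensate stages by its number, against wells named Fb (fibroblast) on the same plates of sorted cells from mouse back skin. The members were every well of plates 1 to 7 whose name carries either prefix, which gave 29 DC2 wells and 1371 Fb wells, or 1400 of the 1967 wells measured. All wells held cells of CD1 embryos (an outbred laboratory mouse strain) at embryonic day 15, with no treatment named, and a row for the fluorescent protein eGFP shows that some cells carried a reporter whose driver the labels do not name. The 7 plates are the replicates, each plate giving 1 sum of DC2 wells and 1 sum of Fb wells, but the labels do not say whether plates came from separate embryos, so p-values measure the spread between plates. Per the series text, the study clustered its single cells to stage the condensate, and the labels do not say whether the well names of these plates follow such clusters or the sort. Where they follow the clusters, the genes below helped to name the wells, and a p-value then describes the separation and is no independent test of it.

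A dermal condensate is the knot of dermal fibroblasts that gathers beneath an epidermal placode and becomes the dermal papilla, the mesenchymal signalling centre of the hair follicle. Its cells are known to leave the cell cycle, to take up a set of transcription factors that includes Sox2, Sox18 and Foxd1, and to exchange WNT, FGF, BMP and hedgehog signals with the epidermis above them. The dermis around it goes on dividing and lays down fibrillar collagen and small proteoglycans.

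Levels are given in CPM, the molecules (unique molecular identifiers, UMIs) of a gene relative to the UMIs of all genes in the sum, scaled as counts per 1000000. The DC2 sums held 391901 UMIs in all and 2855 to 117119 per plate, against 30731513 UMIs in all and 2372569 to 6033442 per plate for the Fb sums. DC2 wells held a median of 9392 UMIs (295 to 43749), against a median of 18509 UMIs (25 to 120619) in Fb wells. Plate 1 stood apart. Its 4 DC2 wells held 295 to 1046 UMIs, while wells of the same plate named for spike-in RNA held a median of 407 gene UMIs. Those 4 wells summed to 0 to 2868 CPM of the condensate markers and 19427 to 29851 CPM of the fibroblast markers. In the spike-in wells of plate 1 the medians were 0 CPM for condensate markers and 28237 CPM for fibroblast markers. A single UMI of the plate 1 sum is worth 350.3 CPM. For each gene the lowest, median and highest DC2 level are therefore given over plates 2 to 7, with plate 1 as UMIs where it matters, and the Fb levels over all 7 plates. Fold changes are fitted over the 7 plates with the plate as block, and calls without plate 1 are given for each group of genes.

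The markers for the stage and for the dermis, listed with earlier results of these data known, went with the labels in the sums of plates 2 to 7. In plate 1 the DC2 wells held 0 to 3 condensate marker UMIs each, and that plate gives the ends of 1751 CPM and 24869 CPM below. The 12 condensate markers summed to 1751 to 6848 CPM in the 7 DC2 sums, against 334 to 394 CPM in the Fb sums, and 9 of the 12 were higher in DC2. All 9 fibroblast markers were lower with TMM scaling of the sums, at 8622 to 24869 CPM in DC2 sums and 44717 to 55542 CPM in Fb sums, though Pdgfra kept its call under no other scaling. Some markers of other cell types were at 0 in the DC2 sums, but every list held UMIs there. Of the Schwann cell markers Foxd3, Erbb3, Cdh19 and Fabp7 were at 0 UMIs, of the immune markers Cd52, Lyz2, C1qa and Cd74, and of the neuronal markers Elavl4, Isl1, Prph and Pou4f1. The Schwann cell list summed to 0 to 32.9 CPM in DC2 sums and 8.92 to 27.1 CPM in Fb sums, and the immune list to 0 to 125 and 7.68 to 18.9 CPM. Medians in DC2 and Fb sums were 251 and 194 CPM for mural cell markers (1 higher, 3 lower). They were 21.9 and 21.6 CPM for melanoblast markers, and 62.5 and 53.9 CPM for muscle markers. The 6 neuronal markers together summed to 62.5 to 1289 CPM in DC2 sums, against 79.2 to 174 CPM in Fb sums, and Stmn2 held most of their UMIs. Of the 7 endothelial markers Tek and Emcn were at 0, and the list summed to a median of 65.7 CPM in DC2 sums (0 to 350.3 CPM, 20 UMIs), against 11.2 to 19.7 CPM in Fb sums. Keratinocyte markers reached 931 CPM in the highest DC2 sum, against 543 CPM in the highest Fb sum, and the part of these lists in the results, Sox18 of vessel cells included, was not tested.

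**Figure D1:**
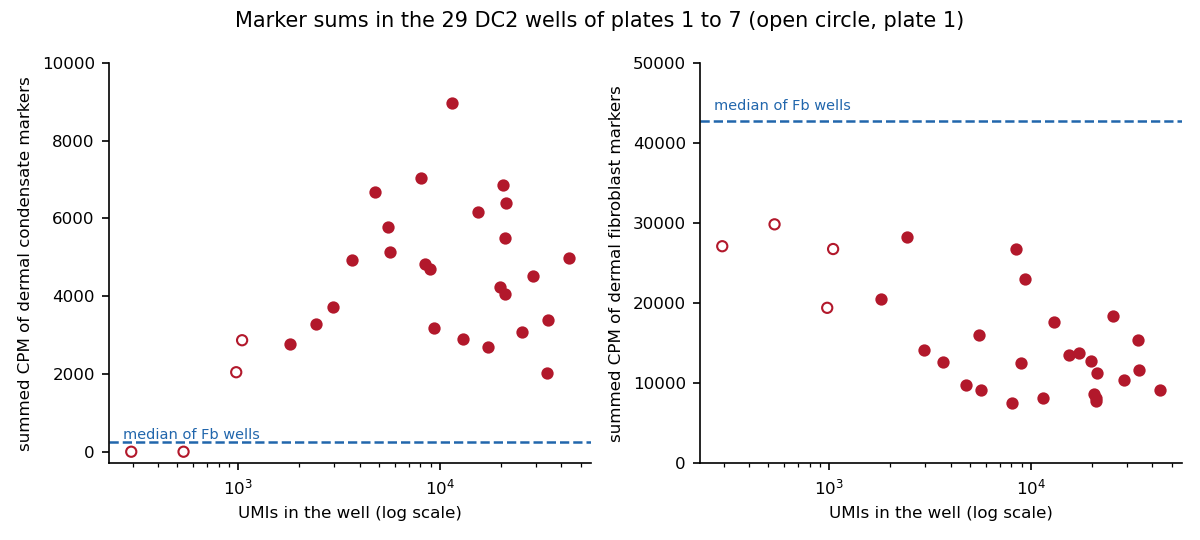
Summed CPM of the 12 dermal condensate markers (left) and the 9 dermal fibroblast markers (right) in each of the 29 DC2 wells, against the UMIs of the well on a log axis. The 22 wells with at least 3000 UMIs lie at 2037 to 8978 CPM of condensate markers, above the Fb median of 255 CPM, while the open circles are the 4 shallow wells of plate 1, of which 2 have no condensate marker UMI.

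Of 9144 genes tested, 501 (5.48%) were higher and 1318 (14.4%) were lower in DC2 by edgeR's quasi-likelihood test with TMM scaling and Benjamini-Hochberg adjusted p under 0.05. TMM shifted the median of all genes to -0.26 (log2), against -0.00 with RLE factors and 0.09 with plain totals, so the verbs rose and fell are kept for genes called in 1 direction under all 3 scalings. These were 501 genes higher (5.48%) and 879 lower (9.61%). The count of each gene list below is to be read beside these 2 shares. Shares depend on the genes tested. In a fit of 4 populations, where only 1814 genes met the minimum, TMM gave 18% higher and 23.2% lower in DC2 than in Fb. Without plate 1 the TMM calls were 530 higher and 1336 lower of 9236 tested (5.74% and 14.5%). Over all genes tested, 320 (3.5%) had all DC2 sums of plates 2 to 7 above all Fb sums and 721 (7.88%) had them all below, and these held 201 of the genes that rose and 539 of those that fell. The test needs a minimum level in at least 7 sums, the number of plates, whichever wells they come from. A gene at 0 UMIs in a DC2 sum, such as that of plate 1, can meet it only with the help of Fb sums. Cxcr4 and Dll1, high in the DC2 sums of plates 2 to 7, did not meet it. A gene at 0 UMIs in all DC2 sums meets it through Fb sums alone and can only be called lower, which holds for 75 of the genes that fell. Others that fell, such as Lox and Cxcl12, were at 0 in most DC2 sums and met it mainly through Fb sums. The counts in the 2 directions are therefore not on equal terms. In the fit without a filter 643 of 18298 genes (3.51%) were higher and 1702 (9.3%) lower in DC2. Of the genes below the minimum, 98 were lower and 278 were higher in that fit. Sox2, Dll1, Hes5, Cxcr4, eGFP, Bmp3, Ndp, Alx4 and Ptch1 are among the 278, and their folds below come from that fit. Genes were counted without stated use of strand, so reads of overlapping or antisense genes and of near-identical copies may be shared.

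Transcription factors of the condensate rose more often than they fell. Of the 27 tested, 12 rose and 6 fell, with a median log2 fold change of 0.71 beside -0.26 over all genes, and the same numbers held without plate 1. Sox18 (mm10 chromosome 2, 181669836 to 181671640), a SoxF factor known from vessel and hair follicle development, had 18.8, 530.2 and 2094 CPM in DC2 sums (lowest, median and highest) and 0.332, 1.41 and 10.5 CPM in Fb sums. The DC2 sums did not overlap the Fb sums in plates 2 to 7, but they spanned a wide range, with 100 UMIs in plate 4 and 2 UMIs in plate 5, and none in plate 1. Its log2 fold change was 7.27 ± 0.388 (SE, adjusted p = 3.38e-74, edgeR).

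Foxd1 (chromosome 13, 98354242 to 98359305), a forkhead factor of several mesenchymal tissues, had 230.5, 395 and 437 CPM in DC2 sums and 2.73, 7.17 and 13.7 CPM in Fb sums. It was present in every DC2 sum, with 2 UMIs in plate 1, and its groups were far apart, with a log2 fold change of 5.09 ± 0.326 (SE, adjusted p = 3.18e-51). Prdm1, a zinc finger repressor, had 281.8, 405 and 745 CPM in DC2 sums and 8.36, 11.8 and 16.4 CPM in Fb sums. It had no UMI in plate 1 and rose by 4.75 ± 0.325 on the log2 scale (SE, adjusted p = 5.68e-45). Sox2 (chromosome 3, 34650405 to 34652461), a pluripotency and sensory progenitor factor that also marks many condensates and papillae, had 53 UMIs in DC2 wells and 29 in Fb wells. It was at 0 in plate 6 and had a median of 110 CPM in DC2 sums, against 0.263 to 2.44 CPM in Fb sums, so 5 DC2 sums of plates 2 to 7 lay above them all and 1 below. Its pooled ratio was 143 (exact 95% Poisson interval 89.5 to 234, counting error only).

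Further members that rose were Glis1 (3.61 on the log2 scale), Sox11 (2.86), Sox9 (2.74), Trps1 (2.62), Id4 (1.66), Lef1 (1.57), Sox4 (1.42), Nfatc4 (1.38) and Runx3 (1.28). Sox11, a SoxC factor of neural and mesenchymal progenitors, had 875, 1184 and 1717 CPM in DC2 sums and 104, 112 and 143 CPM in Fb sums. The groups did not overlap. Alx4, a homeobox factor of cranial and skin mesenchyme, was higher in the fit without a filter (4.79). The 6 that fell were Twist1 and Twist2, basic helix-loop-helix factors that keep mesenchyme undifferentiated, the zinc finger factors Snai2, Zeb1 and Hic1, and Id2. Twist2 had 209, 365 and 606 CPM in DC2 sums and 884, 1001 and 1109 CPM in Fb sums, without overlap, and fell by 1.81 on the log2 scale (SE 0.299, adjusted p = 6.31e-08). Tbx18, often used as an early condensate marker, had a log2 fold change of 0.38 with adjusted p = 0.496.

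Detection per well counts the same UMIs again, for Sox18, Cxcr4 and Foxd1 with wells pooled over plates, and adds no test. With every well thinned to 3000 UMIs, 22 DC2 wells and 1155 Fb wells remained. Sox18 was then found in 72.7% of DC2 wells and 0.520% of Fb wells, Cxcr4 in 81.8% of DC2 wells and 0.520% of Fb wells, and Foxd1 in 54.5% of DC2 wells and 1.99% of Fb wells. Unthinned, the shares were 75.9% of all 29 DC2 wells and 2.99% of all 1371 Fb wells for Sox18, 86.2% of DC2 wells and 5.54% of Fb wells for Cxcr4, and 75.9% of DC2 wells and 4.96% of Fb wells for Foxd1.

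**Figure D2:**
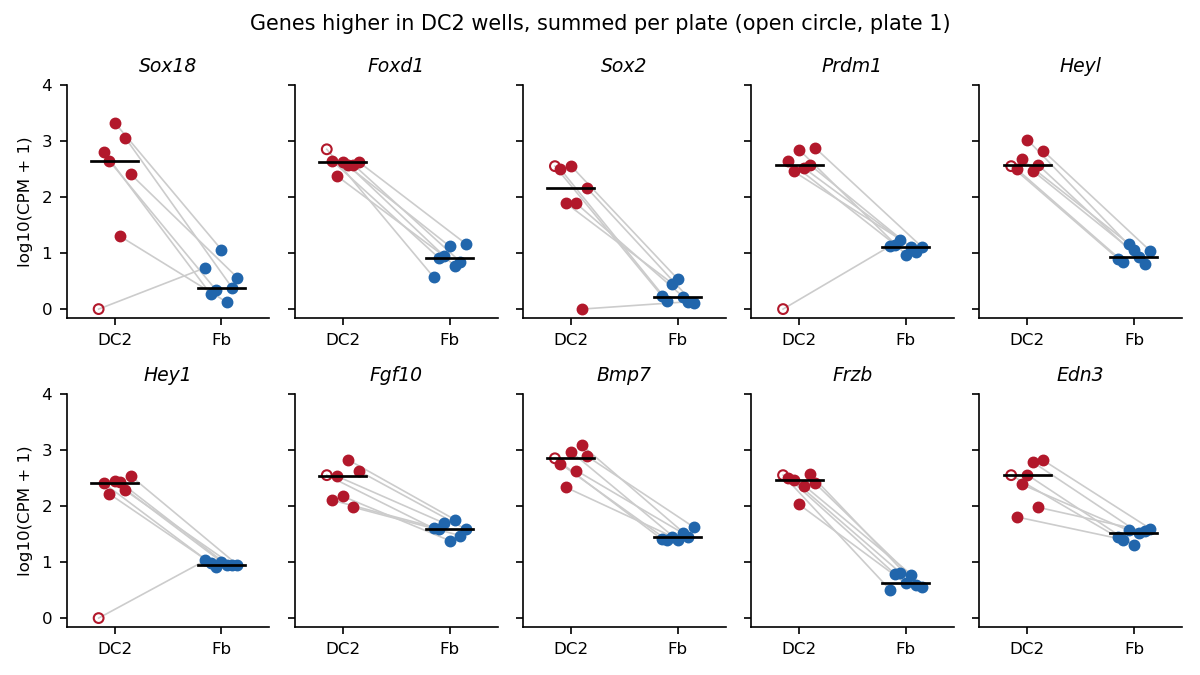
Level of 10 genes, as log10(CPM + 1), in the DC2 sum (left, red) and Fb sum (right, blue) of each of the 7 plates, joined by plate, with black bars at the medians. Foxd1, Heyl, Bmp7 and Frzb lie above the Fb sums in every plate, while Sox18, Prdm1 and Hey1 are at 0 in the shallow plate 1 (open circle) and Sox2 is at 0 in plate 6.

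Secreted signals moved in both directions. Of 28 secreted signals tested, 8 rose and 9 fell, with a median of -0.94 on the log2 scale, and TMM alone gave 8 higher and 13 lower with plate 1, and 9 and 12 without it. The 8 that rose were Bmp7 (3.86), Inhba (3.36), Edn3 (3.17), Rspo3 (3.0), Bmp4 (2.73), Fgf10 (2.62), Pdgfa (2.44) and Igf1 (1.68). Bmp7, a bone morphogenetic protein, had 213.5, 665 and 1211 CPM in DC2 sums and 23.4, 27.1 and 40.8 CPM in Fb sums, with a log2 fold change of 3.86 ± 0.297 (SE, adjusted p = 1.47e-35). Every DC2 sum lay above every Fb sum. Bmp4, the BMP of the condensate and papilla in most accounts, had 279.4, 456 and 679 CPM in DC2 sums and 37.1, 56.1 and 61.0 CPM in Fb sums. The groups were apart in plates 2 to 7, with no UMI in plate 1.

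Fgf10, a ligand of the epidermal FGF receptor Fgfr2, had 93.1, 240 and 659 CPM in DC2 sums and 23.0, 38.4 and 55.7 CPM in Fb sums. Plates 5 and 7 were high and plates 2, 4 and 6 low, all above the Fb sums, and the log2 fold change was 2.62 ± 0.320 (SE, adjusted p = 3.45e-14). Plates 3, 5, 6 and 7 share a sequencing run name in the labels, plates 1 and 2 carry other names and plate 4 carries none. In plates 1, 2 and 4 together the log2 fold change of Fgf10 was 1.70 with adjusted p = 0.351 by edgeR. Edn3, the endothelin that acts on melanoblasts, had 62.5, 298 and 646 CPM in DC2 sums and 18.8, 31.7 and 38.4 CPM in Fb sums. Plates 5 and 7 were again the highest, and plates 2 and 6 held 1 UMI each. Bmp3 and Ndp, the gene of the WNT receptor ligand norrin, were higher in the fit without a filter (5.38 and 7.11).

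The 9 signals that fell were Igf2, Kitl, Ptn (2 UMIs in DC2 wells), Cyr61, Wnt4, Wnt11 (0 UMIs), Inhbb, Fgf7 and Tgfb2. Igf2, a fetal growth factor abundant in embryonic mesenchyme, had 279.4, 434 and 937 CPM in DC2 sums and 3523, 4564 and 5814 CPM in Fb sums. The highest DC2 sum lay below the lowest Fb sum, and the log2 fold change was -3.58 ± 0.309 (SE, adjusted p = 4.08e-28). Kitl, the ligand of the Kit receptor of melanoblasts, had 0, 48.3 and 75.4 CPM in DC2 sums and at least 231.7 CPM, with a median of 312 CPM, in Fb sums. Fgf7 and Tgfb2 had no UMI in DC2 wells, against 538 and 597 UMIs in Fb wells. Their pooled levels were at least 2.29-fold and 2.54-fold lower, taking 3 UMIs over the DC2 group as the floor. Of these melanoblast signals Edn3 rose and Kitl fell.

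The Notch pathway genes that passed the test all rose. Notch signalling passes from ligands (Dll, Jag) on a neighbouring cell to Notch receptors, whose cleaved tail joins the DNA-binding protein Rbpj and turns on Hes and Hey repressors. Of 16 members tested, 5 rose and none fell, with a median of 0.48, and the same numbers held without plate 1. The receptors Notch1 and Notch3 rose by 2.40 and 1.59 on the log2 scale and the ubiquitin ligase Dtx3 by 0.94. The target Heyl (chromosome 4, 123233556 to 123249875) had 292, 417 and 1047 CPM in DC2 sums and 5.45, 7.62 and 13.7 CPM in Fb sums. It was above all Fb sums in every plate, with 1 UMI in plate 1, at 5.35 ± 0.334 on the log2 scale (SE, adjusted p = 8.83e-54).

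The target Hey1 (chromosome 3, 8663359 to 8667256) had 162, 256.9 and 340 CPM in DC2 sums and 7.25, 7.96 and 9.66 CPM in Fb sums. It varied little among plates 2 to 7, had no UMI in plate 1, and rose by 4.47 ± 0.342 (SE, adjusted p = 4.32e-36). The ligand Dll1, higher without a filter, had 42.7, 250.2 and 375 CPM in DC2 sums and 0.169, 0.528 and 1.39 CPM in Fb sums, and its groups did not overlap in plates 2 to 7. Jag1, a ligand of the hair follicle in later stages, had 7 UMIs in DC2 wells and a log2 fold change of 0.37 with adjusted p = 0.742. Rbpj stood at -0.02 with adjusted p = 0.983.

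Hes5, another target, was uneven. It had 44 UMIs in DC2 wells, of which 33 lay in plate 7 and 26 in a single well, while plates 1, 2 and 6 had none. In Fb wells it had 2 UMIs. Its pooled ratio was 1725 with an exact 95% interval of 450 to 14691 for counting error only, and 7 of 29 DC2 wells held a UMI. The 250 bases before the Hes5 start (RefSeq, GRCm38.p6, plus strand, chr4:154960673-154960922) are shown because Notch targets are turned on through Rbpj, with the letters GTGGGAA and their reverse complement TTCCCAC in capitals.
Hes5: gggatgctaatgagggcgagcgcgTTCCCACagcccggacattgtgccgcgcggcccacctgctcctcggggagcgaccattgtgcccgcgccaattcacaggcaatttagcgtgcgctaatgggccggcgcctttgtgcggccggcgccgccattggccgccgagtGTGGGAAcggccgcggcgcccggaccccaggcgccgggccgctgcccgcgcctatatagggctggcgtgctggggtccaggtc
The 2 matches begin 226 and 83 bases before the start and lie on opposite strands. Of 26 list members 20 had a window, and 3 of these (Hes5, Hey2 and Lfng) held the letters on either strand, or 15%, beside 5.42% of all 32851 windows. The first share counts genes with the letters in any of their windows and the second counts single windows, so they differ in unit. A match is a description of the sequence and not of binding.

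WNT pathway genes moved in both directions, secreted antagonists and receptors among them. Of 36 tested, 9 rose and 6 fell with a median of 0.02, and TMM alone gave 9 higher and 8 lower with or without plate 1. The secreted antagonist Frzb had 105, 267 and 373 CPM in DC2 sums and 2.23, 3.14 and 5.39 CPM in Fb sums. It was far above the Fb sums in all 7 plates, at 5.52 ± 0.375 (SE, adjusted p = 1.77e-45). Notum, a secreted enzyme that inactivates WNT ligands, rose by 2.90, and the feedback inhibitors Nkd2 and Nkd1 by 1.58 and 0.83. The effector Lef1 rose by 1.57 and Ctnnb1, the gene of beta-catenin, by 1.11. The remaining members that rose were the receptors Fzd2, Fzd3 and Lgr4.

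The 6 that fell were the secreted antagonists Sfrp1 (-1.95), Sfrp2 (-1.25) and Sfrp5 (-3.66), the receptors Fzd7 (-2.55) and Lgr5 (-2.80), and Sp5. The folds of Fzd7 and Lgr5 rest on 2 and 3 UMIs in DC2 wells. Axin2, the commonest readout of WNT signalling, was at 0, 32.4 and 84.8 CPM in DC2 sums and 40.4, 51 and 73.3 CPM in Fb sums. These ranges overlap, and its log2 fold change was -0.28 with adjusted p = 0.706. Sp5, a zinc finger factor induced by WNT in many tissues, had no UMI in any DC2 well, against 38.4, 46.0 and 53.0 CPM in Fb sums. With 1419 UMIs in Fb wells it was at least 6.03-fold lower. The 250 bases before its start (RefSeq, GRCm38.p6, plus strand, chr2:70474673-70474922) are shown because no other list member had a window with the TCF/LEF letters CTTTGAT, here in capitals. A link between Sp5 and the rise of Lef1 was not tested.
Sp5: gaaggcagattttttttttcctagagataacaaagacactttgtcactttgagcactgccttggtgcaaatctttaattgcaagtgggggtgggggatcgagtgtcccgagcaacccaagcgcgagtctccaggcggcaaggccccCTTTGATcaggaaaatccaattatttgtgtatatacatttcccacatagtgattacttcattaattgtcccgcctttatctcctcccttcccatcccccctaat
The match begins 104 bases before the start. Of 43 list members 27 had a window, and 1 of these (Sp5) held CTTTGAT or its reverse complement ATCAAAG, or 3.70%, beside 3.21% of all windows. Here too the first share counts genes and the second counts windows.

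Hedgehog genes showed targets up and co-receptors down. Of 12 tested, 2 rose and 4 fell, with a median of -0.78, and TMM alone gave 2 higher and 5 lower with plate 1, and 2 and 6 without it. Gli1, a transcriptional target and effector, had 281.8, 386 and 652 CPM in DC2 sums and 54.0, 67.3 and 71.2 CPM in Fb sums, without overlap in plates 2 to 7, and rose by 2.1 ± 0.292 (SE, adjusted p = 6.25e-11). Hhip, a target that binds the ligand, rose by 2.82, and Ptch1, receptor and target, was higher in the fit without a filter at 2.66, from 12 UMIs in DC2 wells. The 4 that fell were the co-receptors Gas1 (-3.06), Cdon (-3.17) and Boc (-2.33) and the repressor Gli3 (-1.53). Gas1 had 0, 105 and 250 CPM in DC2 sums and 648, 711 and 806 CPM in Fb sums, so its groups stood apart.

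FGF receptors and feedback genes had 4 that rose and 3 that fell among 15 tested, with a median of 0.53, and TMM alone gave 4 higher and 3 lower with plate 1, and 6 and 3 without it. Il17rd, an inhibitor of FGF signalling, rose by 2.07, Spred1 by 0.95, Spry1 by 0.86 and the receptor partner Flrt2 by 0.80. The sulfatases Sulf1 (-1.84) and Sulf2 (-1.53) and the inhibitor Spry2 (-1.72) fell. Among 19 BMP antagonists and targets, 3 rose (Smoc1, Id4 and Smad7) and 3 fell, among them Smoc2 and Id2, with a median of -0.22. Over all genes 5.48% rose and 9.61% fell, so counts this small say little of the list. Smoc1, a secreted protein that antagonises BMP signals, had 168, 430.1 and 537 CPM in DC2 sums and 8.15, 12.2 and 18.1 CPM in Fb sums. The groups did not overlap in plates 2 to 7. TMM alone gave 3 higher and 5 lower BMP genes with plate 1, and 2 and 4 without it.

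Cell cycle genes fell as a group. Of 42 S phase genes tested 33 fell and none rose, with a median of -2.03, and of 55 G2 and mitosis genes 33 fell and none rose, with a median of -1.58. TMM alone gave 35 S phase and 41 G2 and mitosis genes lower with plate 1, and 36 and 41 without it. The replication clamp Pcna had 62.8, 197.2 and 250 CPM in DC2 sums and 484, 567 and 636 CPM in Fb sums, without overlap, and fell by 2.14 (SE 0.324, adjusted p = 2.34e-09). Cdc6, Ung, Pola2 and E2f8 had no UMI in DC2 wells, against 843, 1166, 1104 and 907 UMIs in Fb wells. They were at least 3.58-fold, 4.96-fold, 4.69-fold and 3.86-fold lower, and at 0 in DC2 wells they could be called in no other direction.

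A single well departed from this. Mki67, the Ki-67 antigen of dividing cells, had 0, 44.5 and 528 CPM in DC2 sums and 284, 411 and 503 CPM in Fb sums. Plate 5 held 56 of its 68 UMIs, 50 of them in a well whose G2 and mitosis genes summed to 33509 CPM, beside a median of 1918 CPM over the 29 DC2 wells and 5051 CPM over Fb wells. Mki67 fell by 2.25 (SE 0.360, adjusted p = 1.96e-08), and without plate 5 by 3.59. Top2a, the topoisomerase of dividing cells, fell by 2.01, and without plate 5 by 3.41. That well held 33871 UMIs and 2037 CPM of condensate markers, the lowest among the DC2 wells with at least 3000 UMIs.

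Of 21 cell cycle inhibitors tested 6 rose and 3 fell, beside 5.48% and 9.61% over all genes. TMM alone gave 6 higher and 4 lower with plate 1, and 7 and 4 without it. Cdkn1a, the p21 inhibitor, had 0, 353.1 and 503 CPM in DC2 sums and 27.8, 50.7 and 74.2 CPM in Fb sums. It was above all Fb sums in plates 3, 4, 5 and 7, within their range in plate 2 with 1 UMI and at 0 in plate 6, and rose by 2.17 ± 0.307 (SE, adjusted p = 1.42e-10). Plk2, Rb1, Ccng2, Gadd45a and Zmat3 rose by 3.78, 3.29, 1.43, 1.40 and 1.26. Cdkn1c, the p57 inhibitor, went the other way, at 312, 525 and 1432 CPM in DC2 sums and 1410, 2010 and 2743 CPM in Fb sums, where only the DC2 sum of plate 5 reached the lowest Fb sum. It fell by 2.13 (SE 0.295, adjusted p = 4.53e-11), and Btg2 (-1.84) and Rbl1 (-2.74) fell too. Ccnd1, the G1 cyclin, had a log2 fold change of -0.73 with adjusted p = 0.0656, and without plate 1 it was called at -0.71.

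Mcm5 and Mcm6, subunits of the replicative helicase and targets of E2F factors, both fell (-2.47 and -1.80). Mcm6 had 43.8, 90.7 and 186 CPM in DC2 sums and 200, 229 and 248 CPM in Fb sums, without overlap in plates 2 to 7. The 250 bases before their starts (RefSeq, GRCm38.p6) are shown for this group, although GENCODE places both starts further downstream, from chr8:75109259-75109508 on the plus strand and chr1:128359706-128359955 on the minus strand, with the E2F letters TTTCGCGC or TTTGGCGC and their reverse complements in capitals.
Mcm5: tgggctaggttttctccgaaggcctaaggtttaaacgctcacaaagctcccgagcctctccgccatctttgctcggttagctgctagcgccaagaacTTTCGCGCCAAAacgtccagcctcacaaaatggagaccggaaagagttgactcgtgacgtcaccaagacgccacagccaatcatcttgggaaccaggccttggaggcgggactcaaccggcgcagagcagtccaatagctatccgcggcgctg
Mcm6: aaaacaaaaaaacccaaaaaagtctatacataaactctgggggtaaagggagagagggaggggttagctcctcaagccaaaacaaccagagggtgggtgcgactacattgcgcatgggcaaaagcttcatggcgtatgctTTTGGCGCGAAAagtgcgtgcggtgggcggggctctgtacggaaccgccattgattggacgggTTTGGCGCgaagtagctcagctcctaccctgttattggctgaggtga
Mcm5 holds 2 overlapping matches, the nearer 149 bases before the start, and Mcm6 holds 3, of which 2 overlap. Of 42 S phase genes 31 had a window, and 6 of these (Casp8ap2, Dtl, Mcm5, Mcm6, Pola1 and Uhrf1) held the letters on either strand, or 19.4%, beside 0.654% of all windows. Again the first share counts genes with the letters in any window and the second counts single windows, so they differ in unit. Genes entered the first share whatever their fold.

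The fibrillar matrix of the dermis fell and a smaller set of matrix genes rose. Of 24 collagen chains tested 9 fell and 5 rose, with a median of -0.67, and TMM alone gave 5 higher and 10 lower with plate 1, and 6 and 10 without it. Collagen chains together summed to 24980 to 29744 CPM in the 7 DC2 sums and 47029 to 59276 CPM in the Fb sums. Col1a1 (chromosome 11, 94936224 to 94953042), a chain of type I collagen, had 898, 1714 and 2749 CPM in DC2 sums and 4358, 9378 and 11747 CPM in Fb sums. The groups did not overlap in plates 2 to 7, and it fell by 2.94 (SE 0.288, adjusted p = 7.55e-22). Its partner chain Col1a2 (-2.82) fell, and so did Col3a1 (-1.86), Col12a1 (-3.40) and Col5a1 (-1.64).

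The 5 chains that rose were Col23a1 (3.05), Col15a1 (2.98), Col11a1 (2.73), Col4a2 (1.2) and Col7a1 (1.19). Col23a1, a transmembrane collagen, had 562, 702 and 1074 CPM in DC2 sums and 49.3, 60.7 and 76.5 CPM in Fb sums, and every DC2 sum of plates 2 to 7 stood above all Fb sums. Basement membrane genes had 5 that rose and 4 that fell of 15 tested, beside 5.48% and 9.61% over all genes. TMM alone gave 5 higher and 6 lower with or without plate 1. Lama2, the laminin alpha chain of muscle and mesenchyme, varied little among plates 2 to 7, at 628, 665 and 692 CPM in DC2 sums and 54.7, 67.4 and 71.1 CPM in Fb sums, a log2 fold change of 2.85 ± 0.287 (SE, adjusted p = 7.90e-21). Smoc1, Frem1, Nid1 and Agrn also rose, by 4.53, 1.94, 1.60 and 1.33, while Lama4, Smoc2, Sparc and Lama1 fell.

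Of 40 elastic fibre, proteoglycan and matricellular genes tested, 21 fell and 3 rose (Fbln2, Ltbp1 and Sdc1), with a median of -1.56, and TMM alone gave 3 higher and 23 lower with or without plate 1. Dcn (chromosome 10, 97479609 to 97518143), the proteoglycan decorin that binds fibrillar collagen, had 293, 436 and 812 CPM in DC2 sums and 3115, 3922 and 4180 CPM in Fb sums. It had 8 UMIs in plate 1, the groups were apart, and it fell by 3.31 (SE 0.305, adjusted p = 9.52e-25). Lum (-3.43), its relative lumican, Thbs1 (-5.73) and Lox (-4.14), the enzyme that cross-links collagen and elastin, fell too. Postn was lower in every DC2 sum except that of plate 6, which had 1118 CPM and 12 UMIs, above the highest Fb sum of 1070 CPM, and it fell by 2.41. Fbln2, a fibulin of basement membranes, had 1152, 1542 and 2329 CPM in DC2 sums and 142, 162 and 182 CPM in Fb sums, and rose by 2.66 ± 0.279 (SE, adjusted p = 4.02e-19) with no overlap in plates 2 to 7.

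Of 27 matrix proteases and inhibitors, 4 rose and 11 fell, beside 5.48% and 9.61% over all genes. TMM alone gave 4 higher and 13 lower with plate 1, and 4 and 12 without it. The metalloproteases Adamts15 (4.09), Adamts4 (3.66) and Adamts20 (2.94) and the inhibitor Serpine2 (0.85) rose. Among those that fell were Adamts1, Adamts2, Adamts5, Adamts9, Timp2, Timp3 and Pcolce, the enhancer of collagen processing, which fell by 2.84. Fap and Mfap5, a protease and a microfibril protein of dermal fibroblasts, had no UMI in DC2 wells, against 1308 and 1075 UMIs in Fb wells, and were at least 5.56-fold and 4.57-fold lower. Of the genes that fell, 75 had no UMI in DC2 wells, so that the size of their fitted fold follows their level in Fb wells and gives no rank. Further genes among them were Kcnk2, Pdpn, Tmeff2, Dmrt2, Pamr1, Emilin3 and Sim1, at least 5.80-fold, 5.63-fold, 5.45-fold, 4.12-fold, 3.80-fold, 3.55-fold and 3.50-fold lower.

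**Figure D3:**
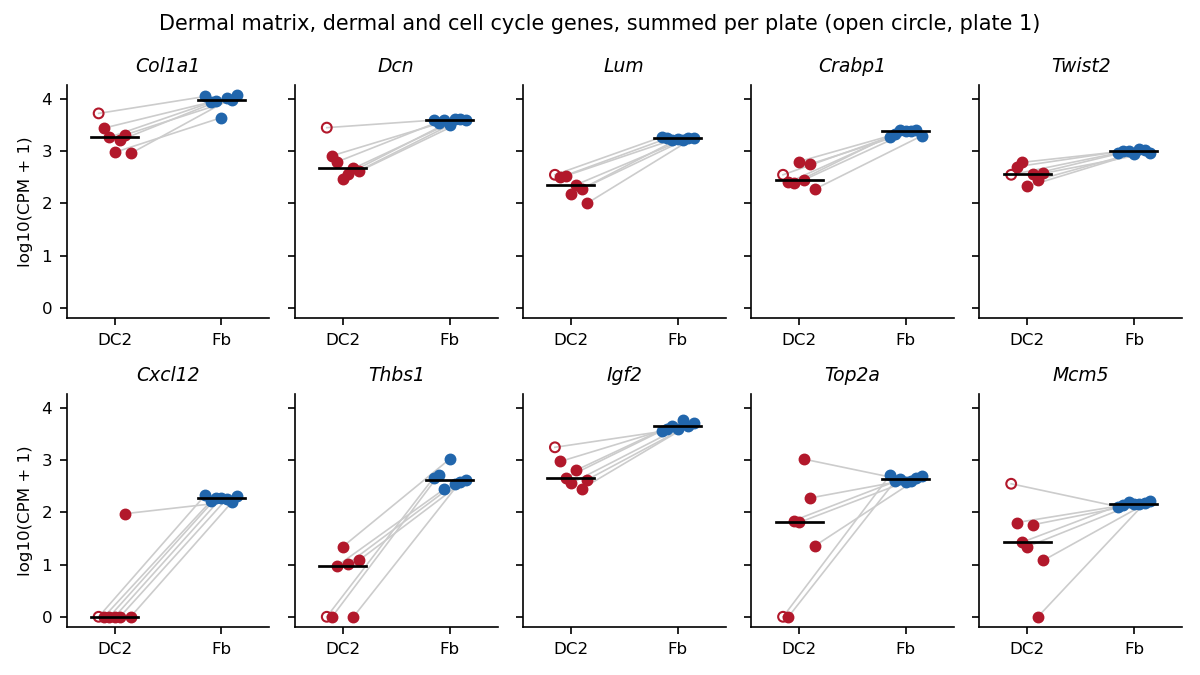
Level of 10 genes, as log10(CPM + 1), in the DC2 sum (left, red) and Fb sum (right, blue) of each of the 7 plates, joined by plate, with black bars at the medians. Col1a1, Dcn, Lum, Crabp1, Twist2, Thbs1 and Igf2 lie lower in DC2 in every plate, Cxcl12 is at 0 in all DC2 sums but that of plate 6, and Top2a is higher than in the Fb sum in plate 5 alone.

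Chemokines and their receptors were mostly too low for the test, with 6 tested, 4 that fell and 1 that rose (Cmklr1, 1.42), and TMM alone gave 1 higher and 5 lower with plate 1, and none and 4 without it. Cxcl12 (chromosome 6, 117168535 to 117181367), the chemokine of mesenchymal tissue, had 1 UMI in the 29 DC2 wells and 5669 UMIs in the Fb wells. It stood at 160, 187 and 214.3 CPM in Fb sums (lowest, median and highest), and its pooled ratio was 72.3-fold lower (exact 95% interval 13 to 2856, counting error only). Cxcr4, its receptor, was the reverse, at 265, 321 and 838 CPM in DC2 sums and 1.26, 2.53 and 8.02 CPM in Fb sums, with a log2 fold change of 6.16 ± 0.338 (SE, adjusted p = 3.48e-70) in the fit without a filter. It was found in 25 of 29 DC2 wells.

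Axon guidance genes had 10 that rose and 7 that fell of 35 tested, beside 5.48% and 9.61% over all genes. TMM alone gave 10 higher and 8 lower with plate 1, and 9 and 8 without it. The receptor Nrp2 had 692, 1020 and 1490 CPM in DC2 sums and 52.6, 68.6 and 82.3 CPM in Fb sums. It rose by 3.38 ± 0.286 (SE, adjusted p = 2.23e-29) with no overlap in plates 2 to 7, while its relative Nrp1 fell by 1.83. The netrin receptor Unc5b rose by 3.39, Epha7 by 2.25 and the semaphorin Sema6a by 2.08. The ephrin Efna5 and the semaphorin Sema3c fell (-2.83 each). Among 31 adhesion molecules and integrins 2 rose, N-cadherin (Cdh2, 3.38) and Cd44 (1.36), and 4 fell, Vcam1, Pcdh10, Pcdh18 and Cadm1. These counts lie near the background of 5.48% higher and 9.61% lower over all genes, and TMM alone gave 2 higher and 5 lower with plate 1, and 2 and 6 without it.

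Of 11 genes of retinoic acid handling 4 rose (Dhrs3, Rara, Cyp26b1 and Rarg) and 2 fell (Crabp1 and Rbp4), with or without plate 1. The shares over all genes were 5.48% and 9.61%. Crabp1 (chromosome 9, 54764748 to 54773110), a cytosolic retinoic acid binding protein of upper dermis, had 186, 266 and 628 CPM in DC2 sums and 1865, 2387 and 2538 CPM in Fb sums. It did not overlap and fell by 3.29 (SE 0.316, adjusted p = 6.99e-23). Of 25 genes that mark upper or lower dermis 14 fell and 3 rose (Ebf1, Zfp423 and Lef1), and TMM alone gave 3 higher and 16 lower with or without plate 1. Among those that fell were Dpt (-4.51), Agtr2 (-4.23), Osr2 (-3.80) and Mest (-3.15).

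Immediate early and stress genes, which rise during cell isolation, had 11 that fell and 1 that rose (Klf4, 1.21) of 27 tested, and TMM alone gave 1 higher and 14 lower with or without plate 1. Fos (-1.56), Junb (-1.67) and Atf3 (-2.56) fell, and the list's median was -0.88 with TMM and -0.34 with plain totals. Of 19 glycolysis and hypoxia genes 6 fell and none rose, with or without plate 1, beside 9.61% and 5.48% over all genes. Ldha had 219.1, 302 and 559 CPM in DC2 sums and 587, 704 and 737 CPM in Fb sums, and fell by 1.69.

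**Figure D4:**
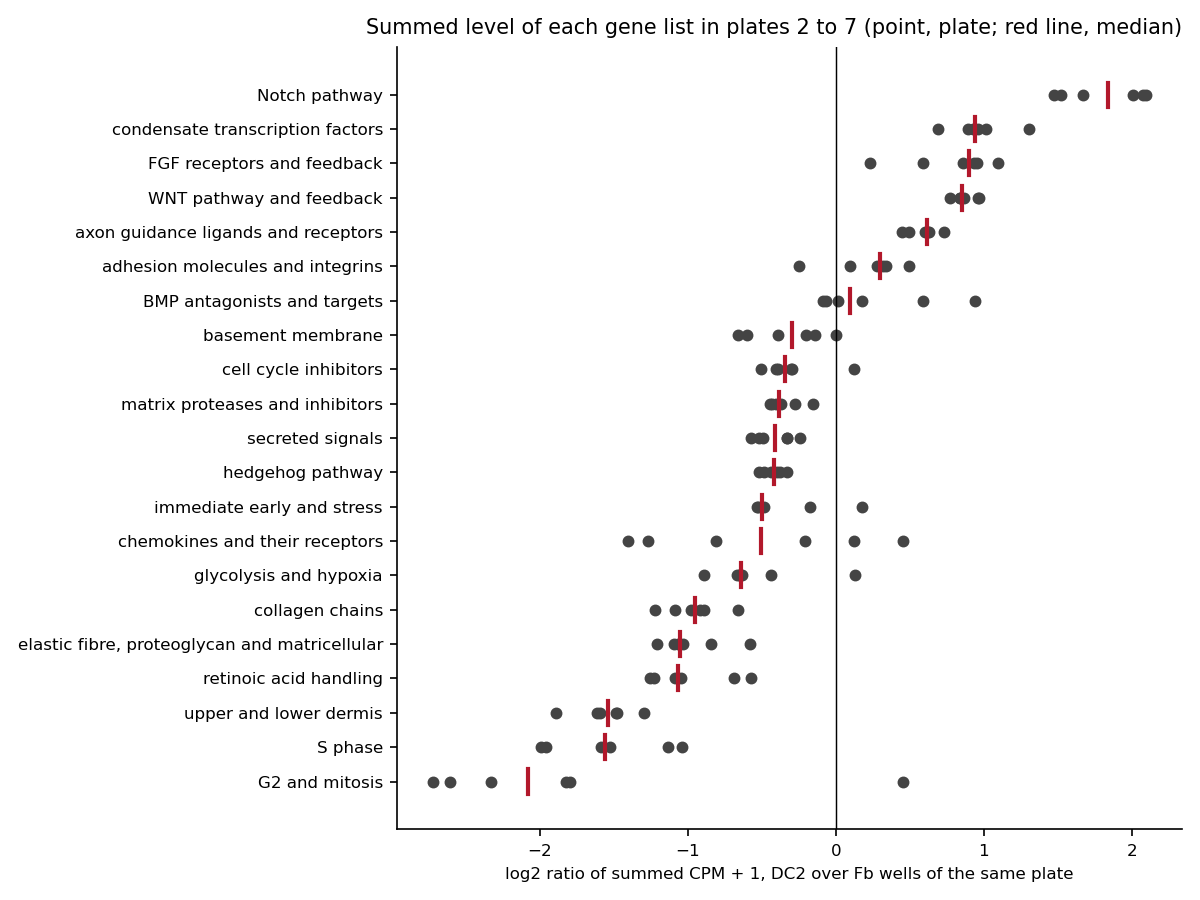
Log2 ratio of summed CPM + 1, DC2 over Fb sum of the same plate, for each of the 21 gene lists, with 1 point for each of plates 2 to 7 and a red line at their median. Notch, condensate transcription factor, WNT, axon guidance and FGF lists lie above 0 in every plate. Upper and lower dermis, S phase, collagen and retinoic acid lists, among others, lie below 0, and the G2 and mitosis list below 0 in all but plate 5. A sum follows the most abundant members and can differ from the median log2 fold change of a list, which was 0.02 for WNT and 0.66 for retinoic acid.

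Genes outside these lists that met the naming rule for rises were Apod (3.07), Syne1 (2.56), Ngfr (2.40), Ism1 (2.21), 6330403K07Rik (2.07) and Aplp1 (2.06). The rule asks for 1 direction in every plate. A gene without a UMI in the shallow DC2 sum of plate 1 therefore cannot meet it as a rise, but can as a fall. It was met by 50 higher and 563 lower genes, and larger rises such as Tspan7 (4.59) did not meet it. Ngfr, the low-affinity neurotrophin receptor, had 93.1, 731 and 880 CPM in DC2 sums and 68.3, 80.6 and 120 CPM in Fb sums. Plate 6, with 1 UMI, overlapped the Fb sums and the other plates from 2 to 7 did not. Stmn2, a neuronal growth protein, was higher at 1.34 (adjusted p = 0.000187), but plate 3 held 140 of its UMIs in DC2 wells and no other plate over 58, and without that plate it stood at 0.91 with adjusted p = 0.0698. eGFP had 188, 260.3 and 373 CPM in DC2 sums and 0, 1.76 and 3.20 CPM in Fb sums.

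Set against DC1, the preceding stage, few genes were called. DC1, DC0 and Fb wells of plates 1 to 7 entered the same fit, and of 1814 genes tested 14 (0.772%) were higher and 10 (0.551%) were lower in DC2 than in the 30 DC1 wells. Both comparisons use the same DC2 sums. Of the 14, 12 had also risen over Fb, and of the 10, 8 had also fallen. Among all 1814 genes of this fit, 18% were higher and 23.2% were lower in DC2 than in Fb. Those shares and the calls of rise and fall come from different fits. Because the DC2 sums are shared, a high or low DC2 value moves both comparisons the same way. The counts are therefore no test of a trend over stages. Tspan7, a tetraspanin, had 0, 559 and 838 CPM in the 7 DC2 sums and 0, 38.7 and 184 CPM in DC1 sums, at 2.96 ± 0.400 (SE, adjusted p = 1.68e-05). Its 0 in DC2 was plate 1. Heyl, Inhba, Adamts20, Adamts15 and Rspo3 were higher by 1.98, 1.90, 1.60, 1.56 and 1.42.

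Twist2 was lower than in DC1 (-1.80, SE 0.225, adjusted p = 6.12e-06), and so was Crabp1 (-2.14, SE 0.442, adjusted p = 0.00775). The median of Twist2 was 1001 CPM in Fb, 2075 CPM in DC0, 1292 CPM in DC1 and 357.9 CPM in DC2 sums, and DC2 alone had a median below Fb. Ccnd1 had medians of 333, 1235, 767 and 219.1 CPM in the same order and was lower in DC2 than in DC1 (-1.40, adjusted p = 0.00755). Cyp26b1, which degrades retinoic acid, was higher than in Fb (1.34) and lower than in DC1 (-1.35, adjusted p = 0.00755). Foxd1, Sox18 and Sox2 differed from DC1 by -0.68, 1.22 and 0.86 with adjusted p of 0.260, 0.128 and 0.537, so no step between these stages was called for them.

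**Figure D5:**
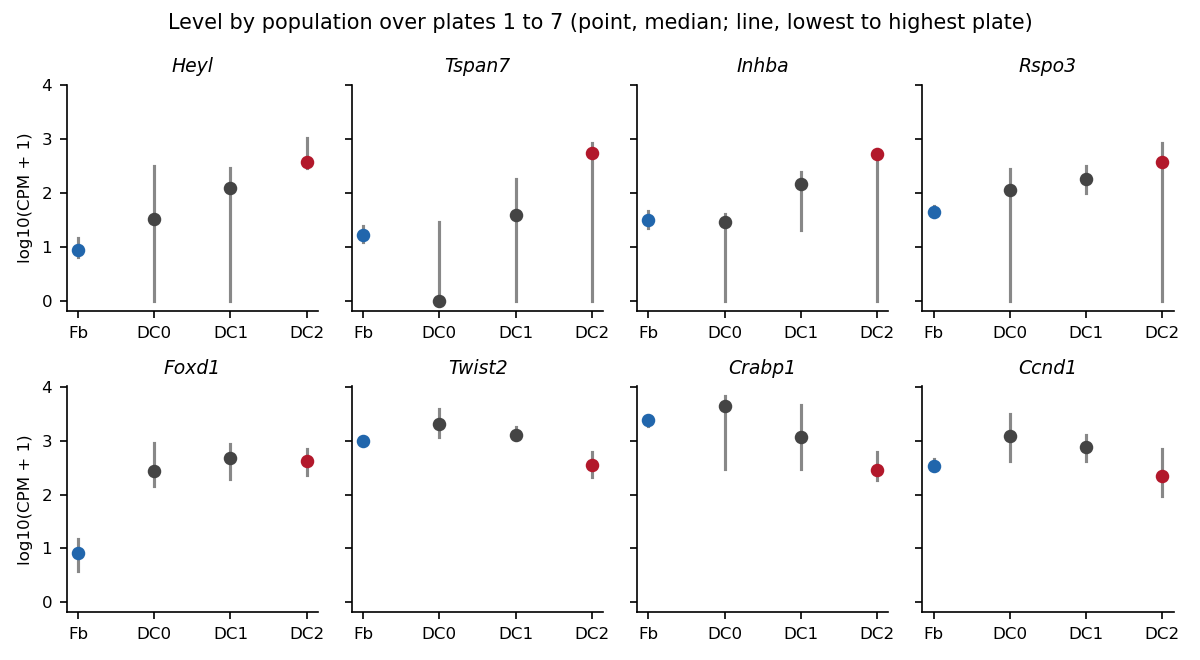
Level of 8 genes, as log10(CPM + 1), in Fb, DC0, DC1 and DC2 sums of plates 1 to 7, with the median as a point and a line spanning the lowest to the highest plate. Heyl, Tspan7, Inhba and Rspo3 have their highest median in DC2, Twist2, Crabp1 and Ccnd1 have their highest median in DC0 and their lowest in DC2, and Foxd1 has a higher median than Fb in every condensate stage.

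Wells of plate 8 were not used above and give the same measure in other cells. That plate held DC2 wells in positions 247 to 376, with 1359197 UMIs and no Fb wells, so its levels were set against the Fb sums of plates 1 to 7 with no test. Of the 501 genes that rose, 490 (97.8%) were above the highest Fb sum in plate 8, beside 38.9% of all genes tested. Of the 879 that fell, 824 (93.7%) were below the lowest Fb sum, beside 32.4% of all. Sox18 stood at 1028 CPM, Foxd1 at 430 CPM, Heyl at 384.1 CPM, Cxcl12 at 3.68 CPM and Dcn at 255 CPM there. Cdkn1c was at 2822 CPM, above the highest Fb sum of 2743 CPM, so its fall in plates 1 to 7 was not seen in plate 8. Plate and population differ together in that comparison and cannot be told apart.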

How the data were processed

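Single cells were sorted into 384-well plates and sequenced by SORT-seq, an automated CEL-Seq2, on a NextSeq500, per the labels' protocols. Per the submitters' processing notes, reads were handled in mm10 with BWA 0.6.2-r126, Cufflinks 2.1.1, TopHat2 2.0.3 and Bowtie2, whose roles are not stated. The deposited values are expected counts, distinct UMIs corrected for chance collisions among 4096 tags, since 0 of 7480233 values departed from that formula by over 0.005. Rounding to whole UMIs altered 13.3% of nonzero values. Whole counts had been assumed. The 86 spike-in rows were left out, and held 2.60% of UMIs in DC2 wells and 1.65% in Fb wells. No library total was equalised in the deposited expected counts.

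UMIs were summed per plate and population (at least 2 wells) and tested with edgeR 4.0.16 under R 4.3.3 (glmQLFit, glmQLFTest, TMM, filterByExpr, plate as block, Benjamini-Hochberg 0.05). The block pairs both sums of a plate because they come from the same plate. DESeq2 1.42.0, RLE factors, plain totals, no filter, no block, thinned UMIs, other well minimums, the shared sequencing run and each plate left out were alternatives. TMM factors ran from 0.763 to 3.10, the highest for the DC2 sum of plate 1. Pooled ratios printed at low counts carry exact 95% Poisson intervals, fitted folds do not, and the floor is 3 UMIs over the group. Intervals and floors cover counting error only. Filtering and tests were also run on simulated counts with 1 spread for all genes, unlike the data, and their outcome is not reported here.

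Members and gene lists were chosen with earlier results of these data known. Genes are named by this rule, from those with adjusted p under 0.05, a log2 change of at least 1, 1 direction in every plate and an average log2 CPM of at least 5: the 14 largest rises and falls, then up to 4 called members of each list, a fixed set of condensate and dermal genes, and others to complete a list. Genes from the fit without a filter, those set against DC1 and single extremes were named after their values were seen. The order of stages is taken from the numbers, and the labels do not define DC0. Of 367 well numbers 358 recur on 2 or more plates, so a well is identified by plate and number. The 12 bulk samples were not analysed here. Some genes are not reported here. Matplotlib 3.10.9, pandas 2.3.3, numpy 2.4.6 and Python 3.11.15 were used.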

Additional observations from a re-analysis of the deposited data

Results flagged for a closer look

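In 29 of 260 sets of values (6 DC2 sums of plates 2 to 7, or 7 Fb sums, of a named gene) the highest or lowest plate stood outside Dixon's 95% limit, which chance passes in about 1 of 20 sets. Among DC2 sums, plate 5 was high for Mki67 (528 CPM, 56 UMIs), Top2a (1036 CPM), Tuba1b (2411 CPM) and Ccna2 (151 CPM), the plate of the well with many mitosis genes. Plate 7 was high for Hes5 (362 CPM) and Col23a1 (1074 CPM), and plate 3 was low for Foxd1 (230.5 CPM against a median of 395 CPM). Plate 4 was high for Plk2 (586 CPM) and Notum (293 CPM). Values that rest on few UMIs were the highs of plate 2 for Atf3 (562 CPM, 9 UMIs), Id2 (312 CPM, 5 UMIs) and Lox (125 CPM, 2 UMIs), and its low for Syne1 (125 CPM, 2 UMIs). In plate 6 they were the highs for Ldha (559 CPM, 6 UMIs) and for Cxcl12 and Ogn (93.1 CPM each, 1 UMI each), and the lows for Col4a1 (186 CPM, 2 UMIs) and Col15a1 (0 CPM).

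Among Fb sums, plate 4 was low for Col1a1 (4358 CPM against a median of 9378 CPM) and high for Thbs1 (1037 CPM), Sox11 (143 CPM), Id2 (272 CPM), Plk2 (25.8 CPM) and Sox18 (10.5 CPM, 30 UMIs). Plate 1 was high for Adamts20 (83.2 CPM) and Sox9 (59.2 CPM), plate 2 for Kcnk2 (61.1 CPM) and plate 5 for Hes5 (0.332 CPM, 2 UMIs).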

How the results depend on the processing

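Values are the share of tested genes called, with the number of genes where it helps. For DC2 against Fb, 5.48% higher and 14.4% lower became 9.66% (883 genes) and 10.6% (971) with RLE factors, 11.8% (1076) and 9.61% (879) with plain totals, and 5.94% (543) and 6.01% (550) with DESeq2. They became 18% (326) and 23.2% (420) of 1814 genes with 4 populations in the same fit, 4.35% and 11.5% (406) of 3517 with wells thinned to 3000 UMIs, 18.2% and 18.7% of 680 with Fb sums thinned to the DC2 totals, and 4.97% (491) and 8.68% (857) with at least 5 wells per sum. The share of calls that were higher was 27.5% with TMM, 47.6% with RLE and 55% with totals. The 4 plates of the shared run gave 4.85% (490) and 8.51% (859), and the other 3 plates, with 13 DC2 wells, 0.509% (46) and 0.63% (57). Plate 4, among those 3, has no run name, so whether it lay outside the shared run is not known. With plate 4 counted outside it, the interaction with the run was called for 0 of 9144 genes by edgeR (513 at unadjusted p under 0.05). Leaving out each plate gave 3.78% to 5.74% higher and 10.2% to 14.5% lower. Without the plate block the calls were 7.99% (731) and 17.5% (1604), and of the named genes Top2a lost its call.

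For DC2 against DC1, 0.772% higher (14) and 0.551% lower (10) became 1.38% (25) and 0.937% (17) with DESeq2, 0.174% (32) and 0.223% (41) without a filter, 2.78% (6) and 2.31% (5) of 216 thinned, 0.874% (8) and 0.437% (4) with DC1 and DC2 sums alone, and 1.24% higher (25) with wells of at least 1000 UMIs or sums of at least 10000. The shared run gave 0.197% lower (5), and the other plates 0 and 0 by edgeR (61 at unadjusted p under 0.05). Without the plate block 1.43% (26) were higher. Leaving out each plate gave 0.216% to 1.11% higher and 0.2% to 0.803% lower, the fewest higher genes without plate 7 (4) and the fewest lower without plate 4 (4), the most higher without plate 1 (23) and the most lower without plates 1 or 2 (16 each); without plates 3, 5 or 6 there were 7, 8 and 6 higher.

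The fewer calls in thinned sums and in 3 plates come with fewer genes tested or fewer samples, and the cause of the other moves was not tested. Of 2716 values of the named genes under these settings 2589 kept their direction and side of the threshold, 110 lost the call (77 of them in the 3 plates without the shared run name), 17 gained it and 0 reversed. Well minimums of 1000 UMIs, plain totals and sums of at least 10000 UMIs were chosen after seeing the data. Genes at 0 UMIs in the DC2 sums allow only a bound.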
